A study of Mus musculus with 6 samples.

Results

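The genes described here are 10 that encode chemokines and cytokines of activated T cells outside the Th1, Th2, Th17 and IL-2 groups, chosen by name: Ccl1, Ccl3, Ccl4, Ccl5, Xcl1, Csf2, Il3, Tnf, Lta and Ltb. All 10 had a row among the 45808 of the deposited raw count table, and 9 of them were among the 14209 genes with enough counts to test. RNA was sequenced from 6 libraries of spleen T cells of C57BL/6 mice aged 2 months, activated in culture with antibodies against CD3 and CD28 plus IL-2. The libraries formed 2 groups of 3, wild type and Drp1-/- (KO). Drp1, encoded by Dnm1l, is the dynamin-like GTPase that divides mitochondria. The sources used here do not say how Drp1 was deleted, in which cells, or whether the replicates came from separate animals, so the p-values measure the spread between these libraries, which may be technical.

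Activated T cells make the products of these genes, which differ in timing: Ltb is expressed in resting lymphocytes already, and Ccl5 is known as a gene induced late after activation. CCL3, CCL4 and CCL5 are CC chemokines that attract other leukocytes, CCL1 is the ligand of CCR8, and XCL1 (lymphotactin) attracts the XCR1-bearing dendritic cells that cross-present antigen. GM-CSF, from Csf2, and IL-3 act on myeloid cells through receptors that share a common beta chain. TNF and lymphotoxin alpha signal through the TNF receptors, and lymphotoxin beta joins lymphotoxin alpha in a membrane trimer that acts on the lymphotoxin beta receptor. Many of these messages are short-lived, because AU-rich elements with the core ATTTA in their 3′ untranslated region (UTR) recruit decay factors such as tristetraprolin, from Zfp36.

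In the KO libraries 7 of the 10 genes rose, 1 fell, 1 did not pass the test and 1 was almost unread. Csf2 rose most, to 3.92 times the wild-type level, followed by Ccl3 at 2.30 times. Ccl4, Xcl1, Tnf, Lta and Il3 rose by 1.38 to 1.72 times. Ltb fell by 42.3%, and Ccl5 stood at 1.11 times the wild-type level without passing. A gene was called where the edgeR quasi-likelihood test gave a Benjamini-Hochberg adjusted p under 0.05 over all tested genes. By that rule 52.9% of all tested genes were called, 26.7% higher and 26.1% lower in KO, so a call by itself is common in this comparison. When only library totals set the scale, 62.0% of all calls were higher, against 50.6% here, and the calls of the 10 genes were the same. All 3 KO libraries lay above all wild-type libraries for those 7 genes, which 32.5% of tested genes also show, and below them for Ltb, which 30.8% show. The median log2 fold change was 0.64 over the 9 tested members and 0.01 over all tested genes. The members were listed with earlier results of these data known, so these figures describe the list and do not test it. A call with at least a 2-fold rise, as for Csf2 and Ccl3, was found for 2.42% of tested genes.

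Facts of the libraries bear on every value below. Each library held 24738017 to 34730475 counts, so that 3 counts correspond to 0.0864 to 0.121 CPM, and the 10 genes together held 7243 to 12421 counts per library. Levels are in CPM, the count as a share of the library total, scaled with TMM factors. Dnm1l itself was read at 119 ± 3.76 CPM in wild type against 95.4 ± 4.57 CPM in KO (SD, n = 3 each), which does not measure how much intact message remained. Wild-type replicate 1 stood apart from its group, with a chi-square per gene of 11.2 and 12.5 against the other wild-type libraries, which differed from each other by 2.43. Xist, expressed from the inactive X of female cells, was at most 0.10 CPM in wild type against 418 to 472 CPM in KO, and 4 Y-linked genes summed to 426 to 532 CPM in wild type against 284 to 306 CPM in KO. The sex make-up of the cells therefore differed between the groups and cannot be told apart from genotype. All 10 members lie on autosomes, and an effect of sex on their levels was not tested.

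**Figure D1:**
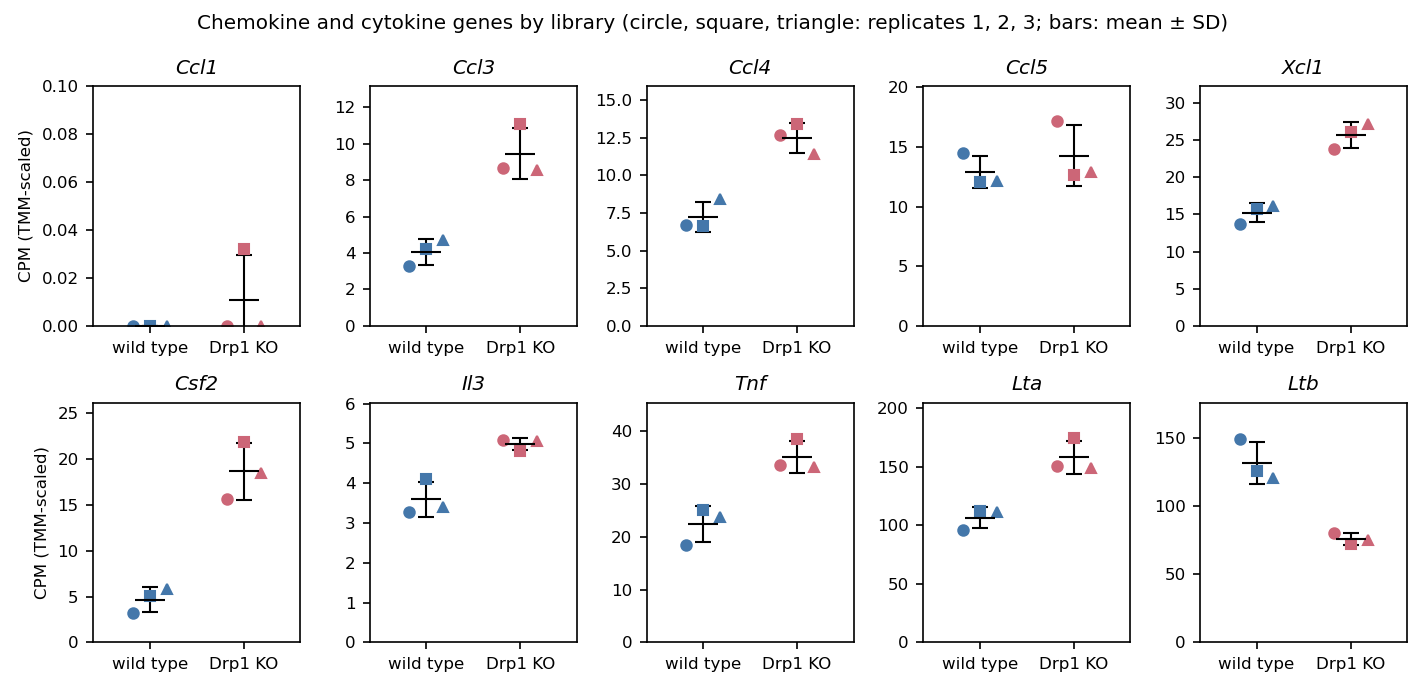
CPM (y axis, from 0, a scale for each gene) of the 10 genes for the libraries of each genotype (x axis); each point is a library, and bars give the mean ± SD of 3. Csf2 sits at 3.15 to 5.78 CPM in wild type against 15.7 to 21.8 CPM in KO, and Ltb at 120.5 to 149 and 72.3 to 80.6 CPM, with no overlap in either.

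Among the chemokines, Ccl3 rose most. It lies on chromosome 11 (83647844 to 83649355, mm10, minus strand) and encodes MIP-1 alpha. Its level was 3.28, 4.20 and 4.70 CPM in wild-type replicates 1, 2 and 3 and 8.68, 11.1 and 8.58 CPM in KO replicates 1, 2 and 3. Every KO library was thus above every wild-type library, with KO replicate 2 the highest. The mean went from 4.06 ± 0.719 to 9.44 ± 1.40 CPM (SD, n = 3 each), a log2 fold change of 1.20 ± 0.15 (SE) with an edgeR adjusted p of 0.00016.

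Ccl4, encoding MIP-1 beta, lies next to Ccl3 (chromosome 11, 83662584 to 83664683, plus strand), with 13.2 kb between them. It was read at 6.69, 6.61 and 8.41 CPM in wild type against 12.7, 13.4 and 11.4 CPM in KO. The groups did not overlap, and the log2 fold change was 0.78 ± 0.11 (edgeR adjusted p = 0.000334). The ratio of Ccl3 to Ccl4 counts, which no scaling of the libraries can alter, was higher in all 3 KO libraries than in any wild-type library. Its log2 value was -0.84 ± 0.18 in wild type and -0.41 ± 0.14 in KO (SD, n = 3 each), a difference of 0.43 with an exact 2-sided permutation p of 0.1, the smallest that 3 against 3 libraries allow. Over the 5 pairs of members compared in this way the Benjamini-Hochberg adjusted p was 0.125.

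Ccl5, encoding RANTES, lies 117 kb from Ccl3 (chromosome 11, 83525778 to 83530518, minus strand) and did not pass the test. Its level was 14.5, 12.1 and 12.2 CPM in wild type against 17.2, 12.7 and 12.9 CPM in KO. Only KO replicate 1 stood above all wild-type libraries, and the groups overlapped. The log2 fold change was 0.15 ± 0.13 (edgeR adjusted p = 0.341), and without KO replicate 1 it was -0.014, so its direction rests on that library. The log2 ratio of Ccl3 to Ccl5 counts went from -1.67 ± 0.41 to -0.59 ± 0.39 (SD, n = 3 each) without overlap, a difference of 1.09 (exact permutation p = 0.1, adjusted p = 0.125).

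Xcl1, the lymphotactin gene, lies on chromosome 1 (164931644 to 164935527, minus strand). It stood at 13.7, 15.7 and 16.1 CPM in wild type against 23.7, 26.1 and 27.1 CPM in KO. Each KO library exceeded the highest wild-type library, and the 3 libraries of each group lay close together. The mean rose from 15.2 ± 1.29 to 25.6 ± 1.71 CPM (SD, n = 3 each), a log2 fold change of 0.75 ± 0.08 (edgeR adjusted p = 8.79e-05). Ccl1 lies on the minus strand of chromosome 11. GENCODE places it at 82176657 to 82305690, but its RefSeq start is 125878 bases from the GENCODE start. In contrast to Xcl1, Ccl1 had 0 counts in 5 libraries and 1 count in KO replicate 2. It was below the 3-count floor everywhere, so no difference was detectable at this depth.

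The growth factor genes Csf2 and Il3 lie 15.6 kb apart on chromosome 11, Csf2 at 54247271 to 54249667 and Il3 at 54265303 to 54267277, both on the minus strand. Csf2 was read with 74, 150 and 182 counts in wild type and 559, 676 and 617 counts in KO, or 3.15, 5.04 and 5.78 CPM and 15.7, 21.8 and 18.4 CPM. Wild-type replicate 1 was the lowest library, and the lowest KO library was far above the highest wild-type library. The mean went from 4.66 ± 1.35 to 18.6 ± 3.08 CPM (SD, n = 3 each), a log2 fold change of 1.97 ± 0.18 (edgeR adjusted p = 4.35e-05). Without wild-type replicate 1 the log2 fold change of Csf2 was 1.78. By size of rise Csf2 was number 47 of the 3800 genes called higher.

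The rise of Il3 was smaller. It stood at 3.28, 4.10 and 3.40 CPM in wild type against 5.10, 4.81 and 5.05 CPM in KO, from 77 to 182 counts per library. The groups did not overlap, though the gap between them was narrow. Its log2 fold change of 0.47 ± 0.12 (edgeR adjusted p = 0.00851) had the largest adjusted p among the 8 called members. Csf2 and Il3 were near equal in wild type, with a log2 count ratio of 0.33 ± 0.41, and parted in KO, with a ratio of 1.89 ± 0.28 (SD, n = 3 each). The difference of 1.55 came without overlap (exact permutation p = 0.1, adjusted p = 0.125).

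The 3 TNF family genes sit together within 10.9 kb of chromosome 17, Ltb at 35194439 to 35196320 on the plus strand, Tnf at 35199381 to 35202007 and Lta at 35203165 to 35205351, both on the minus strand. Tnf, the inflammatory cytokine of the group, was read at 18.5, 25.0 and 23.8 CPM in wild type against 33.6, 38.5 and 33.2 CPM in KO. The groups did not overlap, wild-type replicate 1 was lowest, and the log2 fold change was 0.64 ± 0.11 (edgeR adjusted p = 0.000682). Lta, encoding lymphotoxin alpha, was read at 96.1, 112 and 112 CPM in wild type against 151, 174 and 149 CPM in KO. It too parted the groups fully, with a log2 fold change of 0.57 ± 0.08 (edgeR adjusted p = 0.000248). For Tnf and Lta, 1.16 kb apart, the log2 ratio of counts was -2.25 ± 0.11 in wild type and -2.17 ± 0.01 in KO, a difference of 0.09 whose groups overlapped (exact permutation p = 0.4, adjusted p = 0.4).

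Ltb, encoding lymphotoxin beta, was the only member of the 10 called lower. It stood at 149, 126 and 120.5 CPM in wild type against 80.6, 72.3 and 75.1 CPM in KO, with wild-type replicate 1 highest and every KO library below every wild-type library. The mean went from 132 ± 15.4 to 76.0 ± 4.22 CPM (SD, n = 3 each), a log2 fold change of -0.79 ± 0.08 (edgeR adjusted p = 6.35e-05). The balance of the lymphotoxin chains turned over: the log2 ratio of Lta to Ltb counts was below 0 in all wild-type libraries (-0.30 ± 0.29) and above 0 in all KO libraries (1.05 ± 0.19). That difference of 1.36 had an exact permutation p of 0.1 (adjusted p = 0.125). Whether protein levels or secretion changed was not measured.

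**Figure D2:**
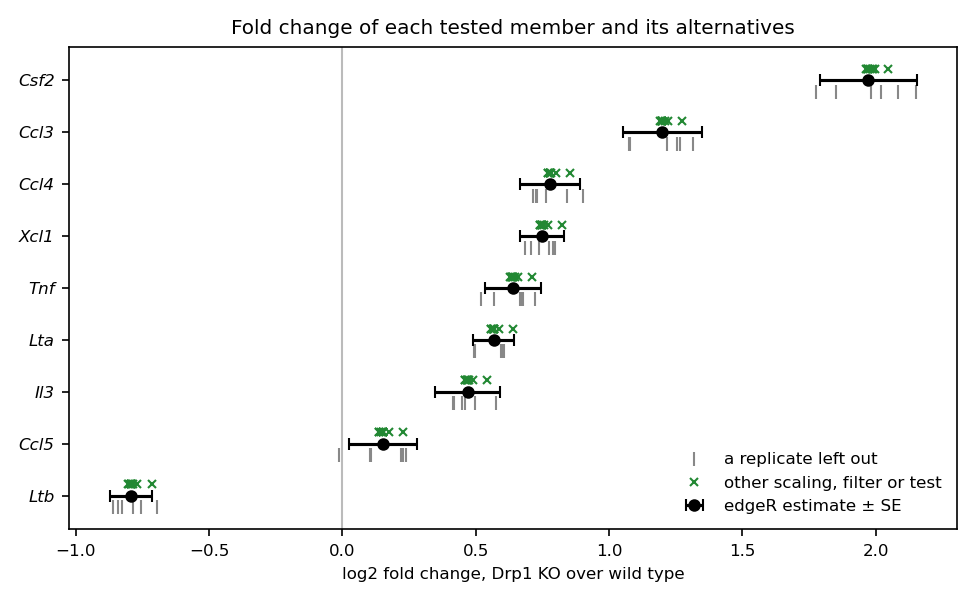
Log2 fold change of KO over wild type (x axis) for the 9 tested members (y axis); black points give the edgeR estimate ± SE, grey ticks the estimates with a replicate left out, and green crosses those under another scaling, filter or test. Csf2 lies between 1.78 and 2.15 and Ltb between -0.86 and -0.70 over these settings, and Ccl5 reaches -0.014.

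Because the 3 TNF family genes are neighbours and parted in direction, their promoter windows are shown, each from 250 bases before to 50 after the gene start, from RefSeq (GRCm38.p6, the assembly of mm10). The capitals mark matches to the NF-kB consensus, to the AP-1 motif TGANTCA or to the TATA box TATAAA, searched on both strands. The RefSeq start was that of GENCODE for Tnf and Lta and lay 68 bases from it for Ltb.
Tnf, chr17:35201958-35202257, minus strand: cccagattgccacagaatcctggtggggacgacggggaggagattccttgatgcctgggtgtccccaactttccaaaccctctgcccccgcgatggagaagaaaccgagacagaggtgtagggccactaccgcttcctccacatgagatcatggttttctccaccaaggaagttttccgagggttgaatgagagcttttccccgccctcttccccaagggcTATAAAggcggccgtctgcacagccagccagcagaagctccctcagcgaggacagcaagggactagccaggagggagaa
Lta, chr17:35205302-35205601, minus strand: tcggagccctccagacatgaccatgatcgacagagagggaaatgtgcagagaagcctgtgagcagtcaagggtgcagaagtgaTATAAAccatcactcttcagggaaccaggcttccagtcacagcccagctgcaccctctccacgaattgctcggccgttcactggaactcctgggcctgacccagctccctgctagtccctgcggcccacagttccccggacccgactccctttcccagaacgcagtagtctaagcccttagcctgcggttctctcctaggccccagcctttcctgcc
Ltb, chr17:35194257-35194556, plus strand: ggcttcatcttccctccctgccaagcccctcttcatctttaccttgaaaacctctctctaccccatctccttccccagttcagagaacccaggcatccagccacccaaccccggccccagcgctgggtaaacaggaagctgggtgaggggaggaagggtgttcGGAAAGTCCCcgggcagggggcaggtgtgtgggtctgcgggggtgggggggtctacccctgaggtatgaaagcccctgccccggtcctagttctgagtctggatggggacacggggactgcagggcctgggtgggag

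The Tnf window held the TATA box letters 29 bases before the start, and the Lta window held them 167 bases before it. The Ltb window held no TATA box letters and 1 match to the NF-kB consensus, 87 bases before the start on the opposite strand. That match overlaps a match to GGAAA, the core bound by NFAT factors, which occurs 3 times in the Tnf and Lta windows each. None of the 3 windows held TGANTCA. Of all 32851 promoter windows of the same length in the table, 4.51% held the NF-kB consensus, 7.81% TGANTCA, 13.6% TATAAA and 61.3% GGAAA. A match describes letters in this window and shows no binding, and a window with no match says nothing of the factor.

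The AU-rich core ATTTA was counted in the 3′ UTR of the longest coding transcript of each gene (GENCODE M21), because decay through this motif is a known control of several members. The densest stretch of 30 bases is shown for the members with the most copies, with ATTTA in capitals.
Csf2: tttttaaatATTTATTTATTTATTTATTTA
Tnf: attATTTAttATTTATTTAttATTTATTTA
Ccl3: gactcttcacttgaaattttATTTAATTTA
Lta: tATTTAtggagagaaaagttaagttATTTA
Csf2 held 9 copies in a UTR of 317 bases, Tnf 8 in 764, Ccl3 5 in 409, Lta 3 in 572, Ccl4 2 in 302, Xcl1 1 in 141 and Il3 1 in 101. Ccl5 (199 bases), Ltb (156 bases) and Ccl1 (285 bases) held 0. The longer form TTATTTATT, which contains ATTTA, occurred 4 times in Csf2, 5 times in Tnf and 1 time in Lta. The 7 members that rose each had at least 1 ATTTA, Xcl1 and Il3 only 1, and the called member without it, Ltb, fell. Only 1 member was called lower, and a link between the motif and direction was not tested.

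Over other genes with UTRs of like length, the shares called differed by few percentage points between those with and without ATTTA. Among 3926 tested genes with a 3′ UTR of 101 to 764 bases, the range of the tested members, 41.8% held ATTTA and 2.83% held TTATTTATT. Only 1.07% held 5 or more copies of ATTTA, as Csf2, Tnf and Ccl3 do. The shares below split genes by presence of the motif, so they do not describe genes with many copies. Of the 1634 non-members in that range with ATTTA, 33.8% were called higher and 23.4% lower. Of the 2283 without it, 32.2% were called higher and 24.6% lower. For TTATTTATT the shares were 38.0% higher and 24.1% lower among 108 genes with it, and 32.7% and 24.1% among 3809 without.

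Levels can be set side by side between genes only per transcript length. In wild type the order in CPM per kb was Ltb (114 ± 13.3), Lta (77.0 ± 6.54), Xcl1 (29.1 ± 2.48), Ccl5 (24.2 ± 2.58), Tnf (13.7 ± 2.12), Ccl4 (11.0 ± 1.54), Csf2 (5.82 ± 1.69), Il3 (5.71 ± 0.70) and Ccl3 (5.30 ± 0.94), all as mean ± SD over 3 libraries. Neighbours whose libraries overlapped in that order were Xcl1 and Ccl5, Tnf and Ccl4, Csf2 and Il3, and Il3 and Ccl3. In KO the order was Lta (114 ± 10.3), Ltb (65.5 ± 3.63), Xcl1 (49.0 ± 3.28), Ccl5 (26.8 ± 4.81), Csf2 (23.3 ± 3.85), Tnf (21.4 ± 1.80), Ccl4 (18.9 ± 1.53), Ccl3 (12.3 ± 1.83) and Il3 (7.93 ± 0.25). There only Ccl5 and Csf2, and Csf2 and Tnf, overlapped. Csf2 moved up from a shared place near the bottom to beside Ccl5 and Tnf.

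**Figure D3:**
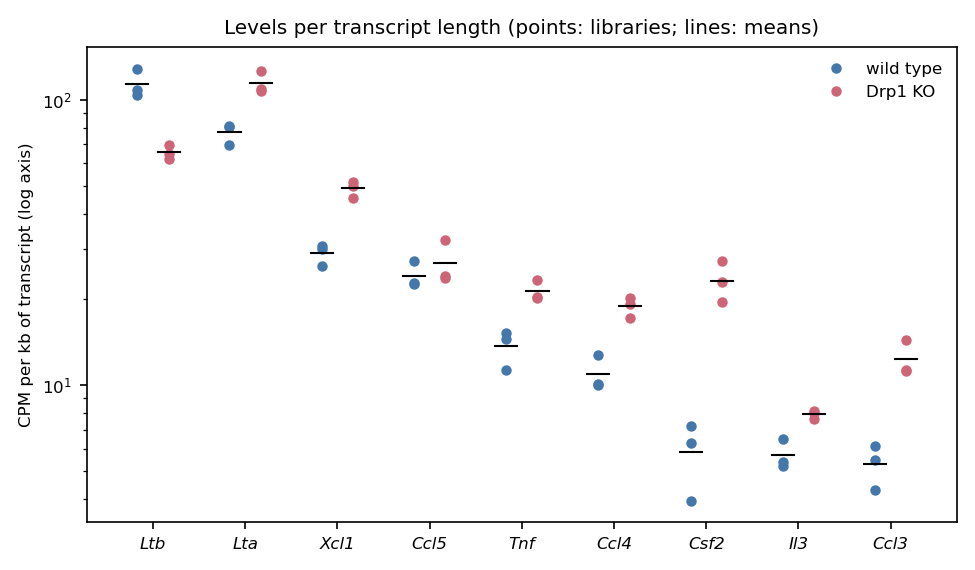
CPM per kb of transcript (y axis, log scale) of the 9 tested members (x axis, ordered by the wild-type mean); points are libraries and lines are means. Ltb is highest in wild type at 114 and Lta in KO at 114 CPM per kb.

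The summed level of the 10 genes changed less than its make-up. Together they stood at 308 ± 1.95 CPM in wild type against 355 ± 18.1 CPM in KO (SD, n = 3 each). Ltb made up 42.7% ± 4.95 of that sum in wild type and 21.5% ± 2.00 in KO, while Lta went from 34.5% ± 2.95 to 44.5% ± 1.73 and Csf2 from 1.51% ± 0.44 to 5.24% ± 0.67. These shares are of CPM not divided by transcript length, so they compare wild type with KO and do not rank the genes. Without Ltb the sum was 159 to 186 CPM in wild-type libraries and 266 to 303 CPM in KO libraries. In bulk RNA of this kind, more cells that make a message and more message per cell cannot be told apart. Wild-type replicate 1 was the lowest wild-type library for 6 of the 9 tested members, Ccl3, Xcl1, Csf2, Il3, Tnf and Lta. The 7 rises and the fall were called without it too.

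Genes near the members did not share one direction. Within 100 kb of Tnf, Lta or Ltb, 17 other genes were tested, of which 3 were called higher, 6 lower and 8 did not pass, with a median log2 fold change of -0.23. Among all tested genes 26.7% were called higher and 26.1% lower, so calls in both directions are common in this comparison. Nfkbil1, next to Lta, fell (log2 -0.48 ± 0.07), as did the MHC class I gene H2-D1 (log2 -0.23 ± 0.04) and Gpank1 (log2 -0.33 ± 0.06), while the RNA helicase gene Ddx39b rose (log2 0.41 ± 0.05). Near Csf2 and Il3 the only other gene tested was Acsl6, a fatty acyl-CoA synthetase, and it rose (log2 0.41 ± 0.09). Around Ccl3, Ccl4 and Ccl5, 5 others were tested: the chemokine gene Ccl6 rose (log2 1.27 ± 0.24), Heatr6 fell (log2 -0.16 ± 0.05) and 3 did not pass. No other gene within 100 kb of Xcl1 was tested. Genes annotated over the bodies of Csf2, Xcl1, Lta and Ltb had at most 16 counts in any library, against at least 74 for these members.

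**Figure D4:**
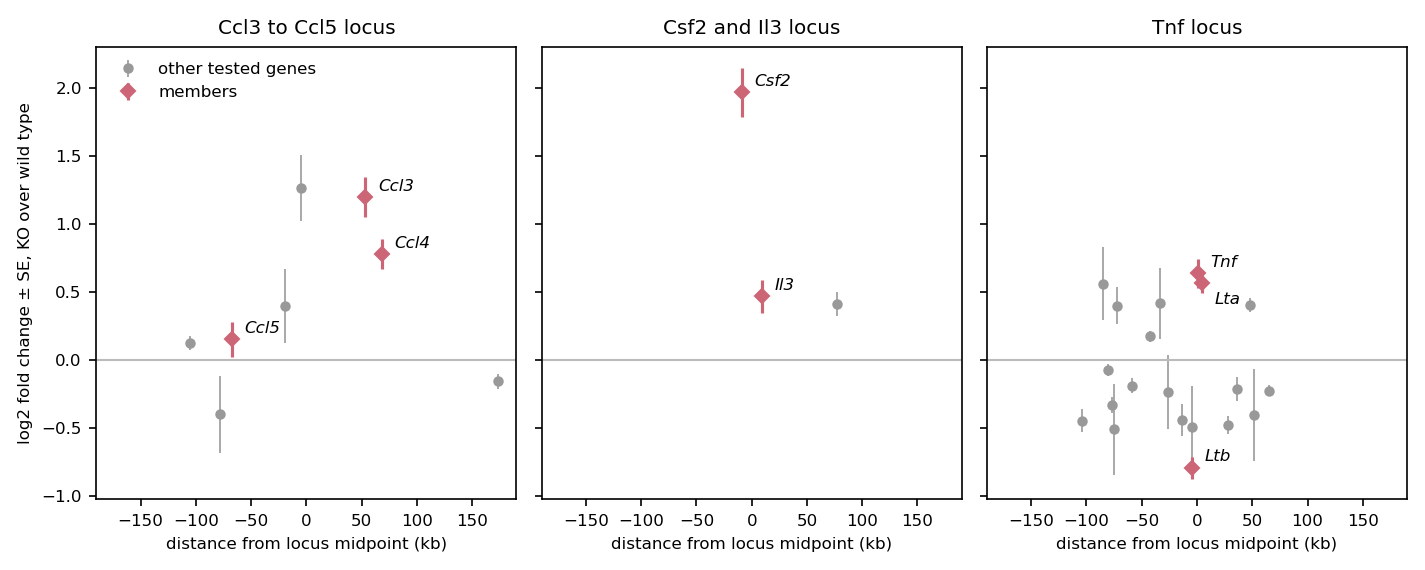
Log2 fold change ± SE of KO over wild type (y axis) against distance from the midpoint of the members of each locus (x axis, kb), for members (red diamonds) and other tested genes within 100 kb of a member (grey). Tnf (0.64) and Lta (0.57) lie above 0 and their neighbour Ltb (-0.79) below.

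Receptors for these ligands were read in the same cultures and moved both ways. Of 13 receptor genes 11 were tested, and 5 were higher, 3 lower and 3 did not pass (median log2 fold change 0.24, against 0.01 over all tested genes). For these counts and those of the lists below, the shares over all tested genes were 26.7% called higher and 26.1% lower. The common beta chain of the GM-CSF and IL-3 receptors, Csf2rb, rose from 1.38 to 2.06 CPM in wild type to 4.34 to 4.54 CPM in KO (log2 1.38 ± 0.16), and its near-identical mouse paralog Csf2rb2 rose by 1.68 ± 0.20. Reads of this pair may be shared between them. Their ligand-specific partners Csf2ra (log2 0.16 ± 0.09) and Il3ra (log2 0.00 ± 0.07) did not pass.

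Ccr8, the receptor of CCL1, rose by 0.24 ± 0.09 on the log2 scale with an edgeR adjusted p of 0.0466. Ccr1 rose (log2 1.55 ± 0.43) from at most 0.38 CPM in wild type to at most 1.26 CPM in KO. The TNF receptors went the other way from Tnf and Lta: Tnfrsf1a (log2 -0.31 ± 0.06), Tnfrsf1b (log2 -0.24 ± 0.05) and Tnfrsf14, which binds lymphotoxin alpha and LIGHT (log2 -0.38 ± 0.08), fell. Ltbr, the lymphotoxin beta receptor, stood at 0.16 to 0.58 CPM and did not pass (edgeR adjusted p = 0.0772). Xcr1 and Ccr3 were too low to test.

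Most other chemokine genes were too low to test. Of 29 listed, 8 had no count in any library and 10 were tested, of which 5 rose, 1 fell and 4 did not pass (median 0.68). The platelet chemokine genes Pf4 (log2 2.06 ± 0.19) and Ppbp (log2 2.23 ± 0.22) and Ccl22, a CCR4 ligand (log2 0.95 ± 0.15), had the smallest adjusted p. Among 26 other secreted cytokine and TNF family ligand genes, 19 were tested, with 10 higher, 4 lower and 5 not passing (median 0.46). Tgfb3 fell from 36.9 ± 1.64 to 18.4 ± 1.55 CPM (SD, n = 3 each), while Spp1, encoding osteopontin (log2 1.79 ± 0.14), and Il24 (log2 1.16 ± 0.13) rose.

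Factors that act on cytokine messages mostly fell. Of 13 mRNA decay and stability genes 8 were lower, 2 higher and 3 did not pass (median -0.34). Zfp36, encoding tristetraprolin, which binds the ATTTA core and promotes decay, went from 63.5 to 69.9 CPM in wild type to 48.1 to 49.8 CPM in KO (log2 -0.43 ± 0.06). Its relatives Zfp36l1 (log2 -0.47 ± 0.07) and Zfp36l2 (log2 -0.32 ± 0.08) fell too, as did Zc3h12d, of the regnase family (log2 -0.56 ± 0.06). Arid5a, which stabilises inflammatory messages, also fell (log2 -0.35 ± 0.05), and Elavl1, the stabilising protein HuR, rose (log2 0.32 ± 0.05). The fall was not shared by all: Hnrnpd, the other gene of the list called higher, rose (log2 0.36 ± 0.08). Khsrp did not pass (log2 -0.03 ± 0.04). Zc3h12a, encoding regnase-1, stood at 27.9 to 31.5 CPM in wild type against 28.9 to 32.0 CPM in KO and did not pass.

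Most transcription factor genes of cytokine promoters did not pass: of 16, 3 were higher, 3 lower and 10 did not pass (median 0.02). Relb (log2 -0.32 ± 0.05) and Nfatc3 (log2 -0.32 ± 0.05) fell and Nfkb2 (log2 0.28 ± 0.05) rose. Klf13, a factor of the Ccl5 promoter, stood at 98.2 to 125 CPM in wild type against 114 to 120.4 CPM in KO. Among 11 genes for TNF shedding and signalling, 2 were higher, 2 lower and 7 did not pass. Adam17, the protease that releases TNF from the membrane, did not pass (log2 -0.12 ± 0.05), and its inhibitor Timp3 rose from 1.07 to 1.62 CPM in wild type to 4.96 to 6.10 CPM in KO (log2 2.01 ± 0.16). Tnfaip3, the NF-kB brake A20 (log2 -0.85 ± 0.12), and Birc2, the ubiquitin ligase cIAP1 (log2 -0.72 ± 0.10), fell. Of 7 genes for signalling from the GM-CSF, IL-3 and lymphotoxin receptors, 5 were lower, 1 higher and 1 did not pass, with Stat5b (log2 -0.46 ± 0.06) and Jak2 (log2 -0.36 ± 0.06) falling.

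**Figure D5:**
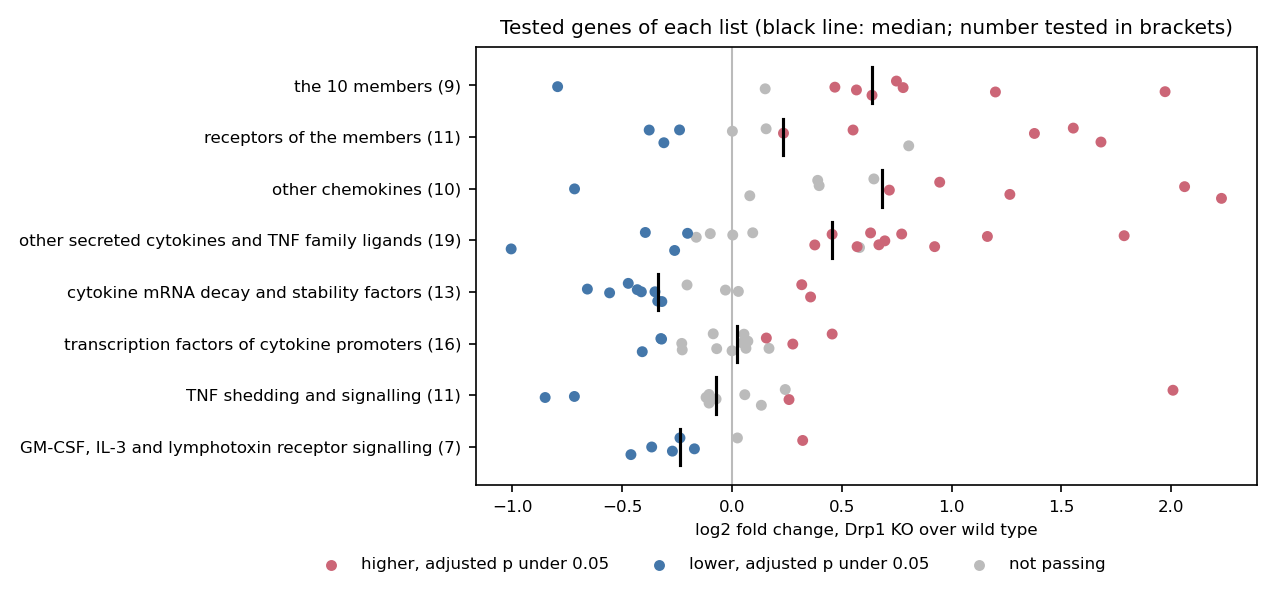
Log2 fold change of KO over wild type (x axis) of each tested gene in the members and 7 related lists (y axis, number tested in brackets); red and blue points passed the test higher and lower, grey did not, and black lines are medians. Most decay and stability factors lie below 0 (8 of 13 called lower), and the other chemokines that passed lie above 0 except 1.

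Markers of other cells moved with genotype, and their part in the results above was not tested. The counts of markers stand beside 26.7% of all tested genes called higher and 26.1% called lower. Of 6 gamma-delta T cell markers 6 rose, with a summed level of 43.2 to 49.8 CPM in wild type against 103 to 122 CPM in KO. Of 7 mast cell and basophil markers 6 rose (Fcer1a, Ms4a2, Cpa3, Mcpt8, Gata2 and Hdc), together 3.40 to 4.36 CPM in wild type against 12.2 to 16.4 CPM in KO, and Kit fell. With Kit, the highest of the 7, their summed level was lower in KO, at 56.8 to 65.5 CPM in wild type against 36.3 to 40.5 CPM. Of 5 megakaryocyte and platelet markers, which include Pf4 and Ppbp, 4 were tested and 4 rose, with a summed level of 7.63 to 9.91 CPM in wild type against 20.5 to 24.0 CPM in KO. Of 7 NK cell markers 5 were tested and 3 rose, with sums of 60.6 to 66.5 and 81.0 to 88.5 CPM. Most of these sums came from Klrc1 (wild-type mean 40.8, KO mean 45.7 CPM), which did not pass, and Eomes (means 18.5 and 32.8), which rose. The other genes that rose were low, Ncr1 (means 0.18 and 0.63) and Klrb1c (means 1.20 and 2.38), and Klra1 did not pass. In wild type the summed level of alpha-beta T cell markers was 3095 to 3227 CPM, and in KO it was 2651 to 2707 CPM, with 6 of 9 lower.

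The other marker lists held at most 2 genes called higher each. Of 5 CD4 and CD8 lineage genes, 4 fell and 0 rose: Cd4 fell (log2 -0.36 ± 0.05), and Cd8a stood at 361.8 to 378 CPM in wild type against 352 to 365 CPM in KO without passing. B cell markers were present, at 490.1 to 503 CPM summed in wild type against 429 to 447 CPM in KO, with 1 of 8 higher and 2 lower. Of 10 macrophage and monocyte markers 3 were tested, 2 higher and 1 lower, with sums of 28.3 to 32.6 and 25.3 to 27.3 CPM and 2 at 0 in all libraries. Of 6 dendritic cell markers 3 were tested, 0 higher and 1 lower (sums of 12.8 to 15.5 and 13.5 to 14.1 CPM), and the 6 neutrophil markers were all too low to test, with 4 at 0 in all libraries.

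Many genes share the members' pattern over 6 libraries of 2 groups. Likeness was measured as Pearson's r of log2 CPM over the 6 libraries, against 9999 non-member genes averaging 5 CPM or more, and is a description with no test. The most alike were Mybbp1a (r = 0.9997) and Eif3b (r = 0.9997) for Csf2, and Kdm5b (r = 0.9999) and Maf1 (r = 0.9998) for Ltb. For the 8 called members 272 to 2031 genes had an r over 0.95. For Ccl5, whose level did not follow genotype, only 4 did, led by Epn2 (r = 0.969) and Ict1 (r = 0.965).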

How the data were processed

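The values are raw counts by gene symbol, which the authors deposited as 1 table of 6 libraries, 3 wild type and 3 KO. Per the labels' protocols, RNA was taken up on a column kit and made into stranded poly(A) libraries. Named in the submitters' processing notes, with no roles, are STAR 2.5.2, HTSeq 0.6.1, Cufflinks, DESeq2 1.12, FastQC and the build mm10. Not given in the sources used here are the annotation release, the strand setting and the treatment of reads with several matches, so that paralogs and overlapping genes may share reads.

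Counts were analysed in edgeR 4.0.16 (R 4.3.3) with TMM factors, filterByExpr (14209 genes, 99.9% of counts) and the quasi-likelihood test of KO against wild type, 2-sided, on 4 residual degrees of freedom, adjusted after Benjamini-Hochberg over all tested genes. The 27 rows whose symbol had become a date (0.241% of counts) stayed in the totals. Count ratios of neighbouring members used counts plus 0.5 and an exact permutation test over libraries. Positions, transcript lengths and UTRs came from GENCODE M21 (mm10), and promoter windows from RefSeq, which matched 8 of the 10 members. Levels per length divide CPM by the longest coding transcript.

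All members were named. From each other list up to 3 called genes with the smallest adjusted p were named, with receptors and genes that pair with a member by role, and up to 4 per locus. The results of 1 listed receptor gene are not reported here, though it counts in the totals. The members and lists were chosen with earlier results of these data known. Klf13, Zc3h12a, Adam17, Zfp36l1, Zfp36l2, Elavl1, Hnrnpd and Khsrp, named for their role, were picked with their values in view. The procedure was tested on simulated counts before use. Far fewer genes changed in that simulation than were called here, so it does not test scaling where many genes change. Figures used matplotlib 3.10.9 in Python 3.11.15. Alternatives used limma 3.58.1 and DESeq2 1.42.0.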

Additional observations from a re-analysis of the deposited data

How the results depend on the processing

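The same 7 members (Ccl3, Ccl4, Xcl1, Csf2, Il3, Tnf and Lta) were higher and Ltb was lower under all 15 alternatives: DESeq2 size factors, upper quartile factors and library totals in edgeR, DESeq2, limma-voom, no filter, at least 1 CPM in 3 libraries, the replicate block, each of the 6 libraries left out, and an adjusted p under 0.01. The adjusted p of Il3, the weakest call, ran from 0.00416 to 0.0347 over them. Ccl5 did not pass under any of the 15, with a log2 fold change of -0.014 to 0.24 with a library left out. Its sign turned without KO replicate 1 (-0.014). The count of genes called was 7513, and 5369 to 7900 over the alternatives. The count ratios of neighbouring members kept their sign with each library left out and with 5 added to the counts. The median log2 fold change over all tested genes was 0.01 and reached 0.08 with library totals alone.

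Whether replicate numbers pair the samples could not be settled, because deviations from a mean of 3 libraries must sum to 0 in each group. Such deviations correlated across genes by 0.17, 0.13 and 0.01 for replicates 1, 2 and 3. Wild-type replicates 1 and 2 correlated best with the KO library of their own number. Wild-type replicate 3 correlated better with KO replicate 2 (0.11) than with its own number. With the replicate block 7900 genes were called, among them the same members. Depth limits Ccl1, with 1 count in all, and the precision of Ccl3, Csf2 and Il3, with under 100 counts in wild-type replicate 1.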
